A study of Mus musculus with 21 samples.

Results

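The 37 genes described here are components of the Hippo pathway and reported targets of its effector complex YAP/TEAD. They were taken by gene name from the scanner files, which hold 37074 names, and all 37 were on the array. The genes were chosen with earlier results of these data known, so counts of members set against all genes are a description. By role they fall into 2 coactivators, 7 TEAD and VGLL genes, 9 kinases, adaptors and upstream regulators, 5 cytoplasmic regulators of YAP or of the LATS kinases, and 14 target genes. They are covered by 72 probes, 16 genes by a single probe and 21 by several, and each gene was read from its probe with the highest mean over the arrays. The transcript called TAZ in the pathway literature is Wwtr1. The array also carries a gene named Taz, which is tafazzin and is not used here.

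In the Hippo pathway a kinase cascade, in which STK3 and STK4 act with SAV1 on LATS1 and LATS2 and their MOB1 cofactors, phosphorylates the coactivators YAP and TAZ and keeps them out of the nucleus. When the cascade is inactive, YAP and TAZ enter the nucleus, bind TEAD transcription factors on DNA and raise transcription of growth and matrix genes such as Ctgf, Cyr61 and Ankrd1. In mouse liver the pathway restrains organ size, and YAP activity is low in mature hepatocytes and higher in bile duct cells. Part of the regulation is on protein phosphorylation and location, which arrays do not measure. Everything below is a level of RNA.

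The data are from freshly isolated mouse hepatocytes and from chemically induced liver progenitors (CLiPs), proliferating bipotent cells derived from such hepatocytes in culture. As general background, CLiPs are made with small-molecule inhibitors of ROCK, of the TGF-beta type I receptor and of glycogen synthase kinase. The labels used here do not give the medium or say whether these agents were present at each stage. All samples were from female C57BL/6 mice, with no transgene or knockout named in the labels, and each group had 3 arrays of total RNA hybridised in 1 colour. There were 7 groups. Late induced cells were CLiPs at passage 11 or 12 given 8 days of hepatic induction with oncostatin M and dexamethasone, an interleukin-6 family cytokine and a glucocorticoid. Late uninduced cells were the same passages kept 8 days without both agents, and late day-0 cells were taken before induction. P1 induced, P1 uninduced and P1 day-0 cells were the same 3 states at passage 1. Fresh hepatocytes were the last group. Late replicate 3 was at passage 11 and the other late replicates at passage 12. The third fresh array carries a passage-1 entry in its labels, but its title was followed in placing it among the fresh arrays. The labels do not say whether replicates were separate animals or cultures, so each p-value sets a difference against sample-to-sample spread that may be technical.

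Levels are log2 signals relative to the 75th percentile of the array, which is 0 on this scale. A probe's level depends on its own hybridisation, so no gene's level is set against another gene's. Differences between groups are on the same log2 scale and carry the standard error of the fit (±), with 3 arrays a group. A change was called when its adjusted p (limma, Benjamini-Hochberg over all genes tested) was under 0.05 and it was at least 2-fold. Between 46.1% and 60.5% of probes were well above background on an array, and no spot was saturated. The fresh arrays were each on a slide of their own and the P1 arrays were on another pair of slides, so slide and conversion cannot be told apart. Late and P1 arrays were read on different scanners with different software versions, so passage and scanner cannot be told apart where late cells are set directly against P1 cells. Replicates correlated at r = 0.982 to 0.996 over the genes measured, with the lowest values among the fresh and the late induced arrays. Of the 35 members measured on all late induced arrays, 23 were lowest on replicate 3, which was at passage 11 and alone on its slide. Of the 33 members measured on all P1 induced arrays, 25 were highest on replicate 2.

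The hepatocyte label of the fresh cells was checked against markers, and 10 of 10 hepatocyte markers were well above background on all fresh arrays. The summed hepatocyte marker level, in units of the 75th percentile, was 919 to 1162 in P1 day-0 cells and 4510 to 5336 in fresh hepatocytes. All 8 markers of bile duct and liver progenitor cells were measured on every P1 day-0 array, against 2 of 8 on every fresh array. In such bulk samples a smaller share of cells of a type and less RNA per cell cannot be told apart.

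A 6-base sequence, CATTCC, is the core of the element bound by TEAD factors. In the mouse promoters of RefSeq (assembly GRCm38.p6), 28 of the 37 members were found, Cyr61 under its newer symbol Ccn1. The 250 bases before the start site were searched for CATTCC and, for the other strand, GGAATG. Of the 34 windows of these members, 17 held the core, which is 50%, against 12.6% of all 32851 windows in the table. By gene, 15 of the 28 members had it in at least 1 window, and so did 4 of the 8 targets found among them. The windows of a gene can overlap, and both windows of Wwtr1 hold the same core. The AP-1 element TGANTCA was in no member window and in 6.75% of all windows. Of the 15 members that were lower on induction at passage 1 (described with the induction results), 12 were found and 6 held the core, and of the 20 that did not pass there, 14 were found and 8 held it. A match to these letters is a description and not a measured binding site.

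Of the members with a core, the 8 that did not pass on induction at passage 1 are not shown. The promoters of the 6 that were lower there are shown. They lie at chr19:36119845-36120094 on the minus strand (Ankrd1), chr3:145649986-145650235 minus (Cyr61), chr14:54577662-54577911 minus (Ajuba), chr9:102717554-102717803 plus (Amotl2), chr1:189728018-189728267 plus (Ptpn14) and chr7:25788734-25788983 minus (Axl). Each is written 5′ to 3′ in the direction of the gene and ends at the base before the start site, with the core in capitals.
Ankrd1: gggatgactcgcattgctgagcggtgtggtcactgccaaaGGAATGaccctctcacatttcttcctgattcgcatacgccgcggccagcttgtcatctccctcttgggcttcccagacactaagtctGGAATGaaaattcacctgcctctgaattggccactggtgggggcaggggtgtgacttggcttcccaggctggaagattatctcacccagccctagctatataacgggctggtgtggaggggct
Cyr61: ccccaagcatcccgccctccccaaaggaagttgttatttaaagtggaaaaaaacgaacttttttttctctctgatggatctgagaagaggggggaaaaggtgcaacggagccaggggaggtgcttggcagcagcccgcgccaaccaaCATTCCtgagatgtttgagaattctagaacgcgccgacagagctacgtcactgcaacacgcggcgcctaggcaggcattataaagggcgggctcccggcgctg
Ajuba: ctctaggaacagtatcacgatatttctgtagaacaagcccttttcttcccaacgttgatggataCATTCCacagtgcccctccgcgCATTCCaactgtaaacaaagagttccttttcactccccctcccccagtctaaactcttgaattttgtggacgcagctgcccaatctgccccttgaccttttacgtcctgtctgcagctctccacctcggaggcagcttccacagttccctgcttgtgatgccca
Amotl2: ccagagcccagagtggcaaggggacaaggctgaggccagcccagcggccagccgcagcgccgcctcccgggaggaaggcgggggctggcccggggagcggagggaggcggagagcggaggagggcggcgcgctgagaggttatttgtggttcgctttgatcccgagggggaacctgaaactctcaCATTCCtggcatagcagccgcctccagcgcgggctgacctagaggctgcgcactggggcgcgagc
Ptpn14: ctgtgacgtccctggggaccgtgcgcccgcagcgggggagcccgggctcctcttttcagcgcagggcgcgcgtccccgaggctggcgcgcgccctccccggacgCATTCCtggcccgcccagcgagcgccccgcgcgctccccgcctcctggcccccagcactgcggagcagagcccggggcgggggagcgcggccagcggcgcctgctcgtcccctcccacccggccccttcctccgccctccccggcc
Axl: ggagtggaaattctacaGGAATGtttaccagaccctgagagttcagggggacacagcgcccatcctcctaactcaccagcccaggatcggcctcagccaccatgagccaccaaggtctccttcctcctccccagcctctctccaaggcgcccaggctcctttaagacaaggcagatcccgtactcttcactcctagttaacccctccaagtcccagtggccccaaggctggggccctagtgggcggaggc
Ankrd1 and Ajuba held 2 copies of the core each, and the other 4 promoters held 1 copy each. The promoters of Ctgf, Tead1, Tead4, Stk3, Arhgef17, Fjx1, Dock5, Nuak2 and Asap1 were not analysed here.

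The first comparison asks what happened to the pathway when hepatocytes became CLiPs. In P1 day-0 cells 11 of the 13 targets tested and all 5 cytoplasmic regulators were higher than in fresh hepatocytes, together with 3 of the 4 TEAD genes and Wwtr1, while the RNA of Yap1 did not pass the test. The targets Ankrd1 and Myof were at least 866-fold and 374-fold higher, and Nt5e was the single member that was lower. Of 35 members tested, 24 were higher, which compares with 25.4% of the 20639 genes tested, and 1 was lower, against 25.2%. The median member change was 2.27 on the log2 scale, against -0.01 over all genes tested. Groups did not overlap for 31 of 35 members, against 79.6% of all genes. Vgll1 and Foxf2 were well above background in none of the fresh or P1 groups in full and were not tested.

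Of the 35, 11 entered the test although the fresh arrays did not all measure them, so their high P1 level is what admitted them. Over the 24 members well above background on every array of both groups, 13 were higher, against 17.9% of 15411 such genes, and 1 was lower, against 25.5%. Their median change was 1.28, against -0.16 over those genes.

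Yap1, the coactivator that gives the pathway its readout, was at 4.26, 4.10 and 4.28 on the P1 day-0 arrays, against 4.36, 4.40 and 4.31 on the fresh arrays. The 2 sets of values were separate but close, and the difference of -0.14 ± 0.10 did not pass the test (adjusted p = 0.193). The probe lies at chr9:7932025-7932084 (mm9, minus strand, from the scanner files), and another, dimmer probe gave -0.60. Wwtr1, which encodes TAZ, was at 4.25, 4.30 and 4.32 in P1 day-0 cells, against 3.11, 2.14 and 2.10 in fresh hepatocytes. It rose by 1.84 ± 0.22 (adjusted p = 1.56e-05), with the first fresh array closest to the P1 values and no overlap.

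**Figure D1:**
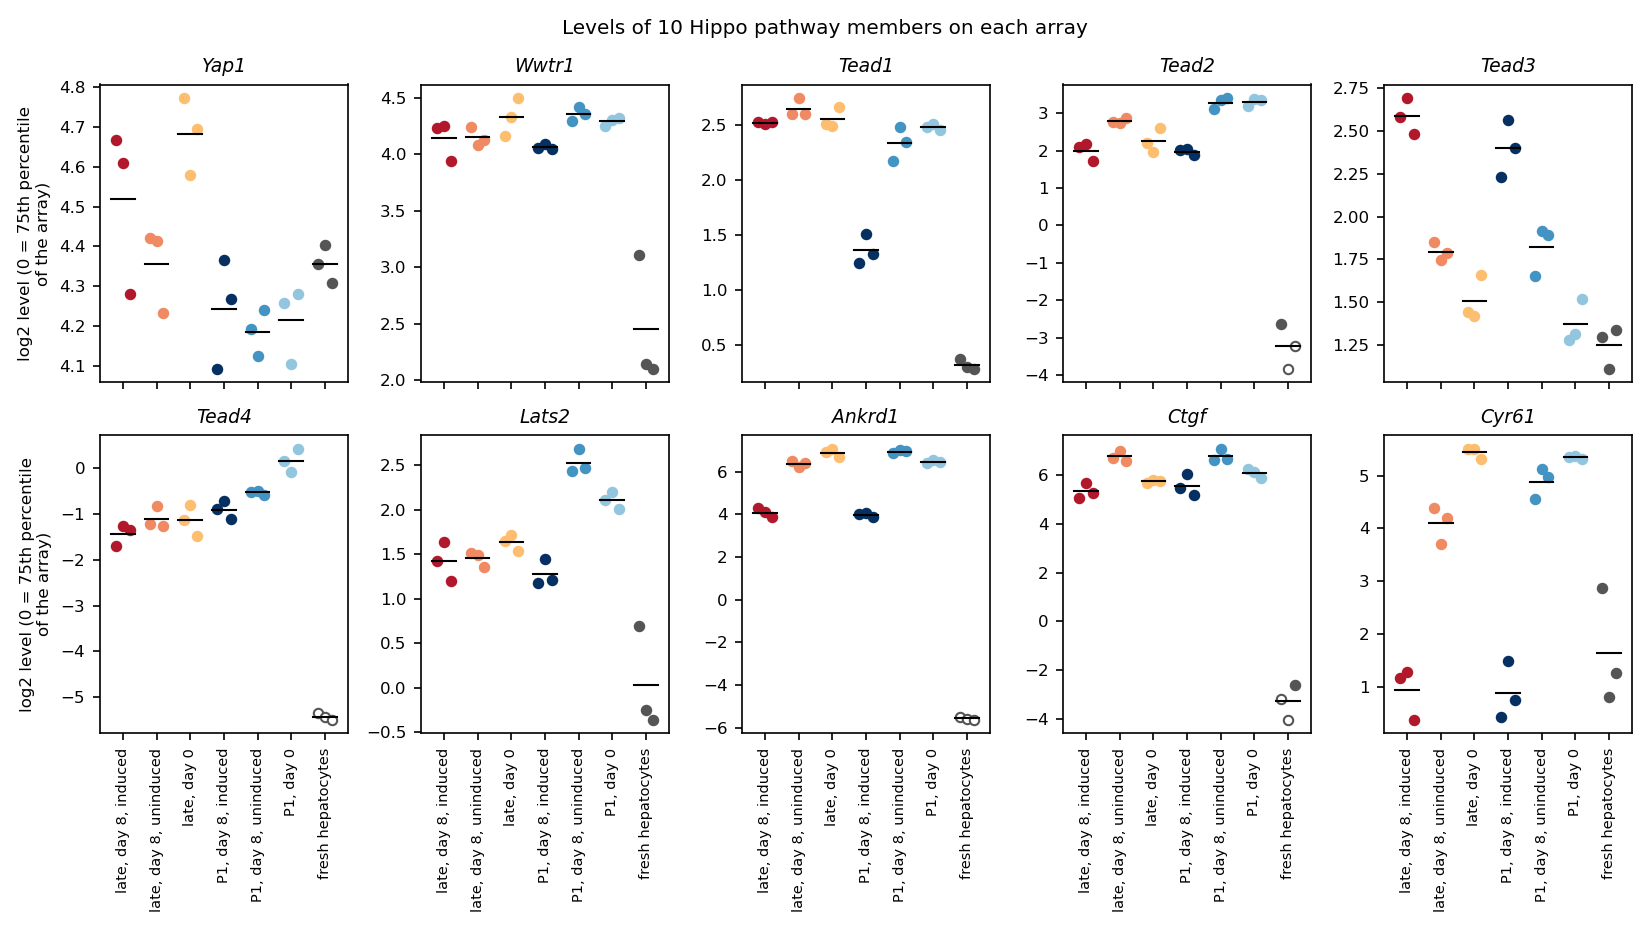
Levels of 10 members on each of the 21 arrays, as log2 signal relative to the 75th percentile of the array (vertical axis, own range per gene), by group along the horizontal axis. Points are arrays, filled where the probe was well above background and open where it was not, and bars are group means. The Yap1 values all lie between 4.09 and 4.77, while Ankrd1 and Tead4 were not above background on any fresh array.

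The TEAD genes encode the DNA-binding partners. Tead1 was at 2.48, 2.51 and 2.45 in P1 day-0 cells, against 0.37, 0.30 and 0.28 in fresh hepatocytes, a rise of 2.16 ± 0.10 (adjusted p = 8.79e-09). Tead2 was at 3.19, 3.37 and 3.36 in P1 day-0 cells, against -2.63, -3.83 and -3.21 in fresh hepatocytes, and rose by 6.53 ± 0.24 (adjusted p = 1.08e-09). Tead2 was well above background on 1 of 3 fresh arrays, so its fresh level is near the limit of measurement, and the groups of both genes were far apart. Tead4 was at 0.17, -0.08 and 0.43 in P1 day-0 cells, against -5.36, -5.44 and -5.50 in fresh hepatocytes, where no array measured it above background. It was at least 11.0-fold higher (adjusted p = 6.57e-11). For such genes the fold is a minimum, because the fresh value was replaced by the lowest signal that was still well above background on the same array. Tead3 was at 1.28, 1.32 and 1.52 in P1 day-0 cells, against 1.30, 1.11 and 1.34 in fresh hepatocytes, and these values overlapped, with a difference of 0.12 ± 0.12 (adjusted p = 0.372). Vgll3, a TEAD cofactor, was also above background on no fresh array and was at least 13.9-fold higher (adjusted p = 5.76e-06). Vgll4, which competes with YAP for TEAD, gave -0.69 ± 0.24 (adjusted p = 0.0199), under 2-fold and with overlapping groups. Without the third fresh array it was called lower, at -1.02. Its other, dimmer probe, well above background on all arrays of both groups, went the other way, at 0.45.

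Among the 9 kinases, adaptors and upstream regulators, 3 rose and the other 6 did not pass. Lats2, a kinase that phosphorylates YAP and is itself a known YAP/TEAD target, was at 2.10, 2.20 and 2.01 in P1 day-0 cells, against 0.69, -0.25 and -0.36 in fresh hepatocytes. It rose by 2.08 ± 0.23 (adjusted p = 9.87e-06), with the first fresh array standing above the other two but below every P1 array. Sav1, the scaffold of STK3 and STK4, rose by 2.20 ± 0.14 (adjusted p = 9.69e-08). Stk4 (MST1) rose by 1.0 ± 0.13 (adjusted p = 3.29e-05), which is at the 2-fold limit and was lost in 3 of the 14 alternative settings tried, among them without P1 day-0 replicate 3 (0.99) and without fresh replicate 1 (0.85). Lats1 at 0.74, Stk3 (MST2) at 0.85 and the LATS cofactor Mob1a at 0.93 had adjusted p-values of 7.57e-05, 4.92e-06 and 5.47e-06 but were under 2-fold. The second MOB1 gene Mob1b at 0.09, Nf2 (merlin, which recruits LATS to the membrane) at 0.18 and Wwc1 (KIBRA, a scaffold of the cascade) at 0.38 were smaller still.

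All 5 cytoplasmic regulators rose. The angiomotins, which bind YAP and hold it in the cytoplasm, rose by 2.61 ± 0.13 for Amot (adjusted p = 1.07e-08) and 2.42 ± 0.17 for Amotl2 (adjusted p = 1.69e-07). Amotl1 was at least 2.45-fold higher (adjusted p = 9.59e-08) and was not above background on any fresh array. Under another background correction (normexp) its change was 0.72 and did not pass. Ajuba, a LIM protein that restrains LATS, rose by 3.24 ± 0.12 (adjusted p = 1.31e-09). Ptpn14, a phosphatase that binds YAP, was at least 40.2-fold higher (adjusted p = 8.01e-12).

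Of the 13 targets tested, 11 rose, 1 fell and 1 did not pass. Ankrd1, a nuclear ankyrin-repeat protein, was at 6.42, 6.54 and 6.45 in P1 day-0 cells, against -5.48, -5.57 and -5.62 in fresh hepatocytes, where it was not above background. It was at least 866-fold higher (adjusted p = 6.78e-14; probe at chr19:36186809-36186868 of mm9). Myof, a ferlin of the plasma membrane, was at 5.14, 5.21 and 5.42 in P1 day-0 cells, against -5.21, -4.33 and -5.35 in fresh hepatocytes, again with no fresh array above background, and was at least 374-fold higher (adjusted p = 2.72e-11). Its other probe was above background on 1 P1 day-0 array and no fresh array and gives no size. Ctgf, a secreted matricellular protein, was at 6.24, 6.13 and 5.90 in P1 day-0 cells, against -3.18, -4.03 and -2.61 in fresh hepatocytes, of which 1 array was well above background. It rose by 9.36 ± 0.33 (adjusted p = 7.89e-10). Cyr61, its family relative, was at 5.34, 5.37 and 5.32 in P1 day-0 cells, against 2.86, 0.80 and 1.26 in fresh hepatocytes, a rise of 3.70 ± 0.45 (adjusted p = 1.98e-05). Unlike Ankrd1, Cyr61 was measured on every fresh array, and the first of them stood well above the others.

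The other targets that rose were of several kinds. Axl, a receptor tyrosine kinase, rose by 5.35 ± 0.40 (adjusted p = 3.39e-07), and the guanine nucleotide exchange factor gene Arhgef17 was at least 130-fold higher (adjusted p = 1.04e-07). Fjx1, the mouse relative of fly four-jointed, was at least 22.2-fold higher and the RNA-binding protein gene Rbms3 at least 3.34-fold, with adjusted p-values of 7.11e-10 and 3.57e-04. The change of Rbms3 did not pass under normexp, where it was 0.75. Crim1, a transmembrane BMP binder, rose by 2.27, the AMPK-related kinase gene Nuak2 by 2.30 and the Arf GTPase-activating protein gene Asap1 by 1.55, with adjusted p-values of 1.53e-06, 5.39e-07 and 1.47e-07. Dimmer probes that were measured on all P1 day-0 arrays gave 1.66 and 0.28 for Lats2, 1.1 for Stk4, 2.34 for Amot and 1.92 for Rbms3. Of these, the Amot and Rbms3 probes were above background on no fresh array, and the Lats2 probes on 1 and 2 fresh arrays. A further probe of Stk4, of Amot and of Rbms3 was above background on none of the 21 arrays and gives no value. Dock5, a Rac exchange factor, gave 0.37 ± 0.21 with overlapping groups (adjusted p = 0.118).

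Nt5e (CD73, an ecto-nucleotidase) ran the other way. It was at -2.36, -2.66 and -2.30 in P1 day-0 cells, against 2.31, 3.71 and 3.49 in fresh hepatocytes, and fell by 5.61 ± 0.64 (adjusted p = 1.10e-05). Its other probe was above background on none of the 21 arrays. Fresh hepatocytes held the highest Nt5e level of any group in the series.

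Several marker lists moved with this comparison, and their part in it was not tested. The summed stellate cell and fibroblast level was 44.5 to 72.2 in P1 day-0 cells and 12.4 to 17.2 in fresh hepatocytes, where Col1a1, Pdgfrb and Thy1 were not above background on any array. The mesothelial list, of which P1 day-0 arrays all measured only Msln, summed to 12.7 to 28.1, against 0.205 to 0.274 in fresh hepatocytes. Cell cycle genes summed to 83.5 to 93.1 in P1 day-0 cells, against 0.981 to 2.09 in fresh hepatocytes. Markers of Kupffer cells and macrophages summed to 3.58 to 3.86, against 9.46 to 31.1, and endothelial markers to 0.818 to 1.37, against 12.2 to 20.1. The bile duct and liver progenitor list summed to 440.2 to 468 in P1 day-0 cells, against 1.26 to 2.17 in fresh hepatocytes.

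**Figure D2:**
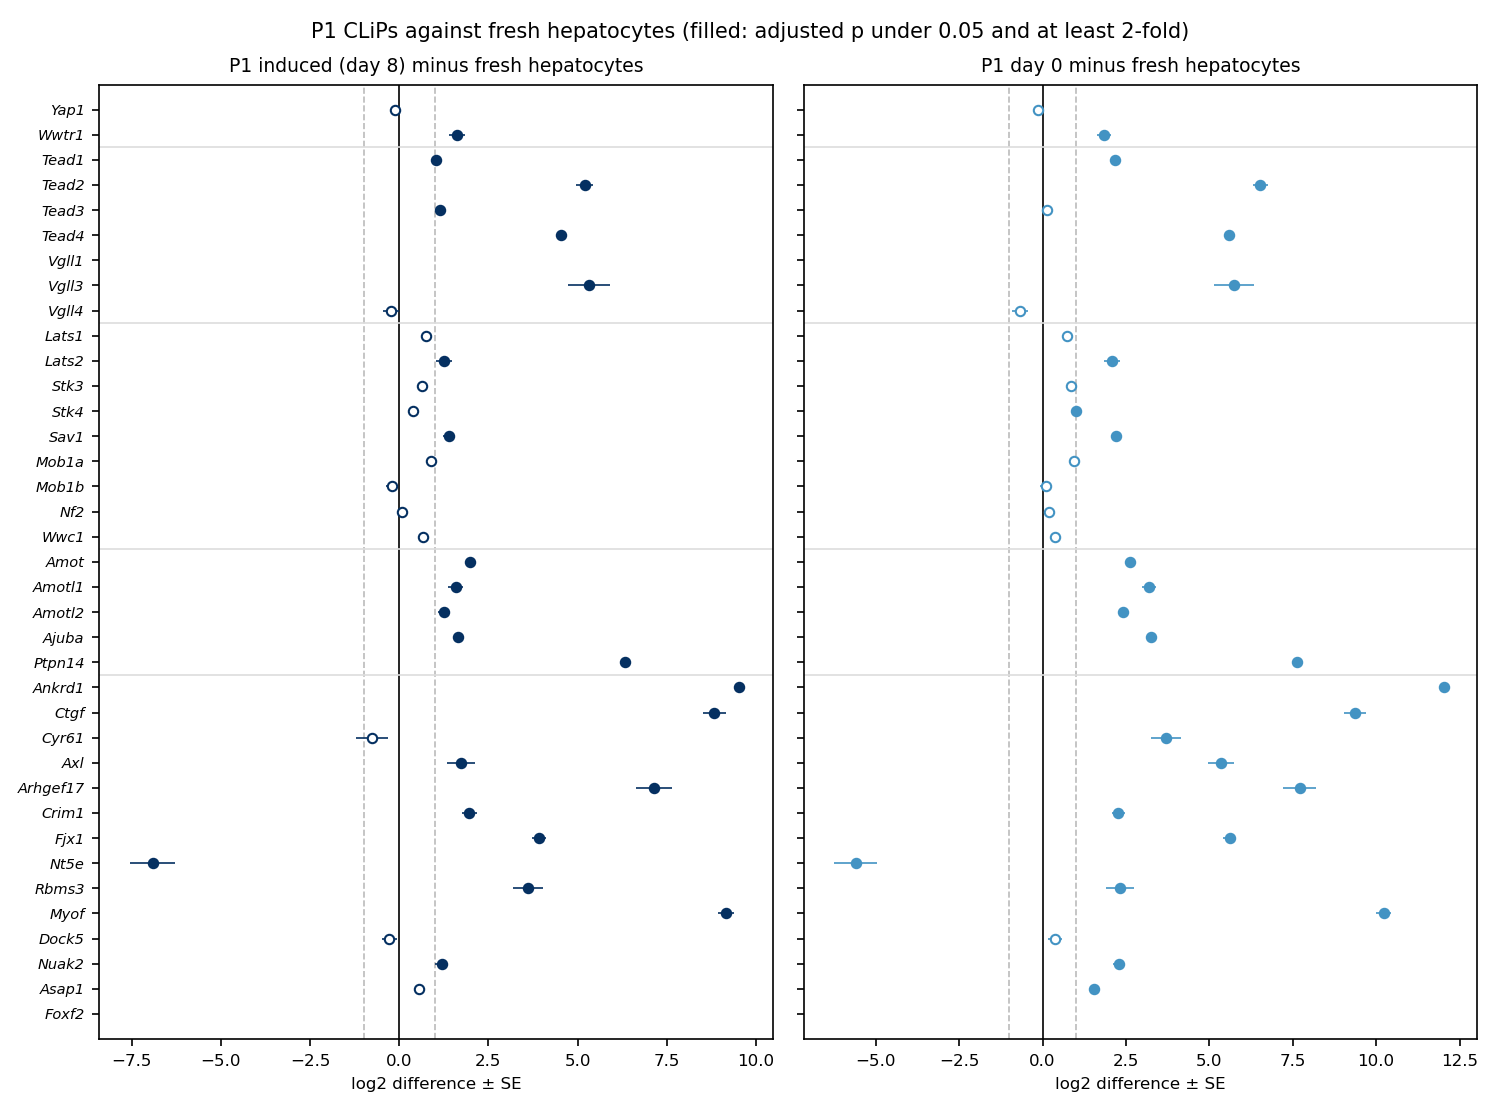
Log2 differences of the members, with standard errors, for P1 induced cells minus fresh hepatocytes (left) and P1 day-0 cells minus fresh hepatocytes (right), ordered by role. Filled points passed the test, dashed lines mark 2-fold, and genes with no point were not tested. Nt5e is the only filled point below 0 in either panel, and Cyr61 is at 3.70 on the right and -0.76 on the left.

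The second question is what 8 days of oncostatin M and dexamethasone did to these genes. At passage 1, no member rose and 15 fell, among them all 5 cytoplasmic regulators and 8 of 13 targets, with Cyr61, Ankrd1 and Fjx1 lowest. Of 35 members tested, 15 were lower, against 9.01% of the 20639 genes tested, and 0 were higher, against 9.68%. At an unadjusted p under 0.05 in limma, 2 members were higher. The median member change was -0.92, against 0.05 over all genes. Groups did not overlap for 28 of 35 members, against 61.2% of all genes. Over the 33 members well above background on all arrays of both groups, 14 were lower, against 6.63% of 17505 such genes, and 0 higher, against 8.61%.

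Cyr61 was at 0.42, 1.48 and 0.74 in P1 induced cells, against 4.56, 5.12 and 4.97 in P1 uninduced cells, and fell by 4.0 ± 0.45 (adjusted p = 4.24e-05). Ankrd1 was at 4.0, 4.06 and 3.85 in induced cells, against 6.88, 6.99 and 6.95 in uninduced cells, and fell by 2.97 ± 0.09 (adjusted p = 1.08e-08). Fjx1 was at -0.56, -0.21 and -0.72 in P1 induced cells, against 2.66, 2.45 and 2.23 in P1 uninduced cells, and fell by 2.95 ± 0.19 (adjusted p = 8.94e-07). In each of the 3, every induced array lay below every uninduced array by more than 2 log2 units. Axl fell by 2.70, Rbms3 by 1.91, Ctgf by 1.24, Nuak2 by 1.21 and Myof by 1.02, with adjusted p-values of 2.82e-04, 0.00347, 0.0104, 3.16e-04 and 0.00347. Ctgf was at 5.47, 6.04 and 5.17 in induced cells, against 6.63, 7.09 and 6.68 in uninduced cells, and gave -1.39 and -1.08 within the 2 slides taken alone. Myof gave -1.02 and -1.11 within the slides. Neither gene passed within a slide, where 1 of the groups had a single array. The call on Myof was also lost without P1 induced replicate 1 (-0.99) or P1 uninduced replicate 3 (-0.96), and with the mean of its probes (-0.74). The remaining targets Arhgef17 at -0.92, Crim1 at -0.39, Nt5e at -0.11, Dock5 at 0.74 and Asap1 at -0.65 did not pass.

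The regulators moved less evenly. The angiomotin genes fell by 1.5 for Amot, 1.57 for Amotl1 and 1.56 for Amotl2, Ajuba by 1.21 and Ptpn14 by 1.75, with adjusted p-values between 2.79e-06 and 1.10e-04. Amotl1 was well above background on 1 of 3 induced arrays, and its call was lost under normexp (-0.67). A dimmer Amot probe, above background on 2 of 3 induced arrays, gave -1.49. The call on Amot was lost with the mean of its probes (-0.93), which takes in a probe above background on no array. Lats2 was at 1.17, 1.45 and 1.21 in P1 induced cells, against 2.44, 2.68 and 2.46 in P1 uninduced cells, and fell by 1.25 ± 0.23 (adjusted p = 0.00136). Its other probes gave -1.04 and -1.29. Within slide 5, which holds a single P1 uninduced array, Lats2 gave -1.13 and the call was lost. The other 8 genes of the kinase list ranged between -0.78 (Sav1, adjusted p = 0.00111) and 0.04 (Stk3) and did not pass.

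The coactivators and most TEAD genes did not pass. Yap1 was at 4.09, 4.37 and 4.27 in P1 induced cells, against 4.19, 4.12 and 4.24 in P1 uninduced cells, a difference of 0.06 ± 0.10 (adjusted p = 0.668). Wwtr1 was at 4.05, 4.09 and 4.05 in P1 induced cells, against 4.30, 4.42 and 4.35 in P1 uninduced cells, a difference of -0.29 ± 0.22 (adjusted p = 0.309). The Yap1 groups overlapped, while the 3 induced Wwtr1 values lay just under the uninduced ones. Tead2 was at 2.00, 2.04 and 1.87 in induced cells, against 3.11, 3.34 and 3.40 in uninduced cells, and fell by 1.31 ± 0.24 (adjusted p = 0.00113). Within slide 4, which holds a single P1 induced array, Tead2 gave -1.22 and the call was lost. Tead1 was at 1.24, 1.51 and 1.33 in P1 induced cells, against 2.18, 2.48 and 2.35 in P1 uninduced cells, with a difference of -0.98 ± 0.10 (adjusted p = 2.56e-05). It was just under 2-fold, passed in 4 of 16 alternative settings (without P1 induced replicate 2 or P1 uninduced replicate 1 it was -1.05), and its other probes gave -1.07 and 1.38. Tead3 was at 2.23, 2.56 and 2.40 in induced cells, against 1.66, 1.91 and 1.89 in uninduced cells, the TEAD gene that was higher on all induced arrays (0.58 ± 0.12, adjusted p = 0.00307, under 2-fold). Tead4 was at -0.89, -0.71 and -1.10 in P1 induced cells, against -0.51, -0.49 and -0.58 in P1 uninduced cells, a difference of -0.38 ± 0.14, Vgll3 gave -1.01 ± 0.60 and Vgll4 -0.56 ± 0.24, none of which passed. With the replicate number as a block, Vgll3 was called lower, at -1.01 (adjusted p = 0.0448 in limma).

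The induced P1 cells also differed from the uninduced ones in their marker levels, and the part of this in the results was not tested. Hepatocyte markers summed to 1340 to 1613 in P1 induced cells and 906 to 980.2 in P1 uninduced cells, and 7 of 10 of them were called higher. Cell cycle genes summed to 2.03 to 3.15 in P1 induced cells, against 6.01 to 9.02 in P1 uninduced cells, and all 8 were called lower. The stellate cell and fibroblast list summed to 60.4 to 139, against 24.3 to 79.96, while of its 11 genes tested 1 was called higher and 2 lower, with a median of 0.36. Kupffer cell and macrophage markers summed to 8.09 to 10.3, against 17.2 to 22.9, with 6 of their 10 genes above background on no array of either group. The bile duct and liver progenitor list summed to 693 to 814 in P1 induced cells, against 479 to 513 in P1 uninduced cells, while 5 of its 8 genes were called lower and 1 higher, with a median of -1.78.

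In late cells 6 members passed the test of the same treatment. Late induced cells had lower Cyr61, Ankrd1, Ctgf, Nuak2 and Amotl2 than late uninduced cells and higher Foxf2. Of 36 members tested, 5 were lower, against 3.06% of the 21341 genes tested, and 1 was higher, against 2.94%. The median member change was -0.31, against 0.04 over all genes, and groups did not overlap for 22 of 36 members, against 36.5% of all genes. Over the 34 members measured on all arrays of both groups, the 5 lower ones compare with 2.3% of 19461 genes, and the 0 higher ones with 2.44%. Nt5e was not tested, as no late group measured it in full.

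Cyr61 was at 1.17, 1.27 and 0.37 in late induced cells, against 4.38, 3.71 and 4.20 in late uninduced cells, and fell by 3.16 ± 0.26 (adjusted p = 3.03e-04). Ankrd1 was at 4.27, 4.11 and 3.85 in late induced cells, against 6.47, 6.21 and 6.39 in late uninduced cells, and fell by 2.28 ± 0.15 (adjusted p = 1.28e-04). Ctgf was at 5.05, 5.67 and 5.28 in late induced cells, against 6.72, 7.0 and 6.59 in late uninduced cells, and fell by 1.44 ± 0.17 (adjusted p = 0.00125). The groups were separate for all 3 genes, and the gap was narrowest for Ctgf. Nuak2 fell by 1.23 ± 0.14 (adjusted p = 0.00107) and Amotl2 by 1.02 ± 0.15 (adjusted p = 0.00324). The call on Amotl2 was lost with slide as a random block (-0.96), within the slide shared by the other late arrays, which leaves out late induced replicate 3 (-0.87), and without late uninduced replicate 1 (-0.94). Foxf2, a forkhead factor of mesenchymal cells, was at -2.46, -1.83 and -2.11 in late induced cells, against -4.95, -3.57 and -4.24 in late uninduced cells, and rose by 2.12 ± 0.32 (adjusted p = 0.00369). It was near the limit of measurement, with 2 of 3 uninduced arrays above background.

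The remaining members were within 2-fold. Yap1 was at 4.67, 4.61 and 4.28 in late induced cells, against 4.42, 4.41 and 4.23 in late uninduced cells (0.16 ± 0.12, adjusted p = 0.393), and Wwtr1 was at 4.24, 4.25 and 3.94 in late induced cells, against 4.24, 4.08 and 4.12 in late uninduced cells (-0.01 ± 0.12, adjusted p = 0.971). Both sets overlapped. Tead1 was at 2.53, 2.51 and 2.53 in late induced cells, against 2.60, 2.75 and 2.60 in late uninduced cells (-0.12 ± 0.08, adjusted p = 0.340). Tead2 was at 2.10, 2.17 and 1.72 in late induced cells, against 2.76, 2.74 and 2.86 in late uninduced cells (-0.79 ± 0.18, adjusted p = 0.0194). As at passage 1, Tead3 was the TEAD gene with higher induced values, at 2.58, 2.69 and 2.48 in late induced cells, against 1.85, 1.74 and 1.79 in late uninduced cells (0.79 ± 0.10, adjusted p = 0.00145). Tead4 was at -1.70, -1.26 and -1.35 in late induced cells, against -1.21, -0.83 and -1.27 in late uninduced cells, with overlap, and Lats2 was at 1.42, 1.64 and 1.19 in late induced cells, against 1.51, 1.49 and 1.36 in late uninduced cells, also with overlap. The Lats2 difference of -0.03 ± 0.12 had adjusted p = 0.874. Ajuba at -0.90, Ptpn14 at -0.80, Axl at -0.77, Amot at -0.74 and Crim1 at -0.69 passed on adjusted p but not on fold.

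Late induced cells summed to 407 to 734 for hepatocyte markers, against 320 to 435 in late uninduced cells, and to 5.94 to 6.40 for cell cycle genes, against 11.6 to 14.6 in late uninduced cells. Their stellate cell and fibroblast sum was 10.0 to 12.6, against 12.7 to 15.6, and 7 of its 12 markers were above background on no array in each group. Kupffer cell and macrophage markers summed to 4.21 to 4.63 in late induced cells, against 7.49 to 12.9 in late uninduced cells. Of these 10 genes 6 were above background on no array of either group. The part of these in the results was not tested.

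**Figure D3:**
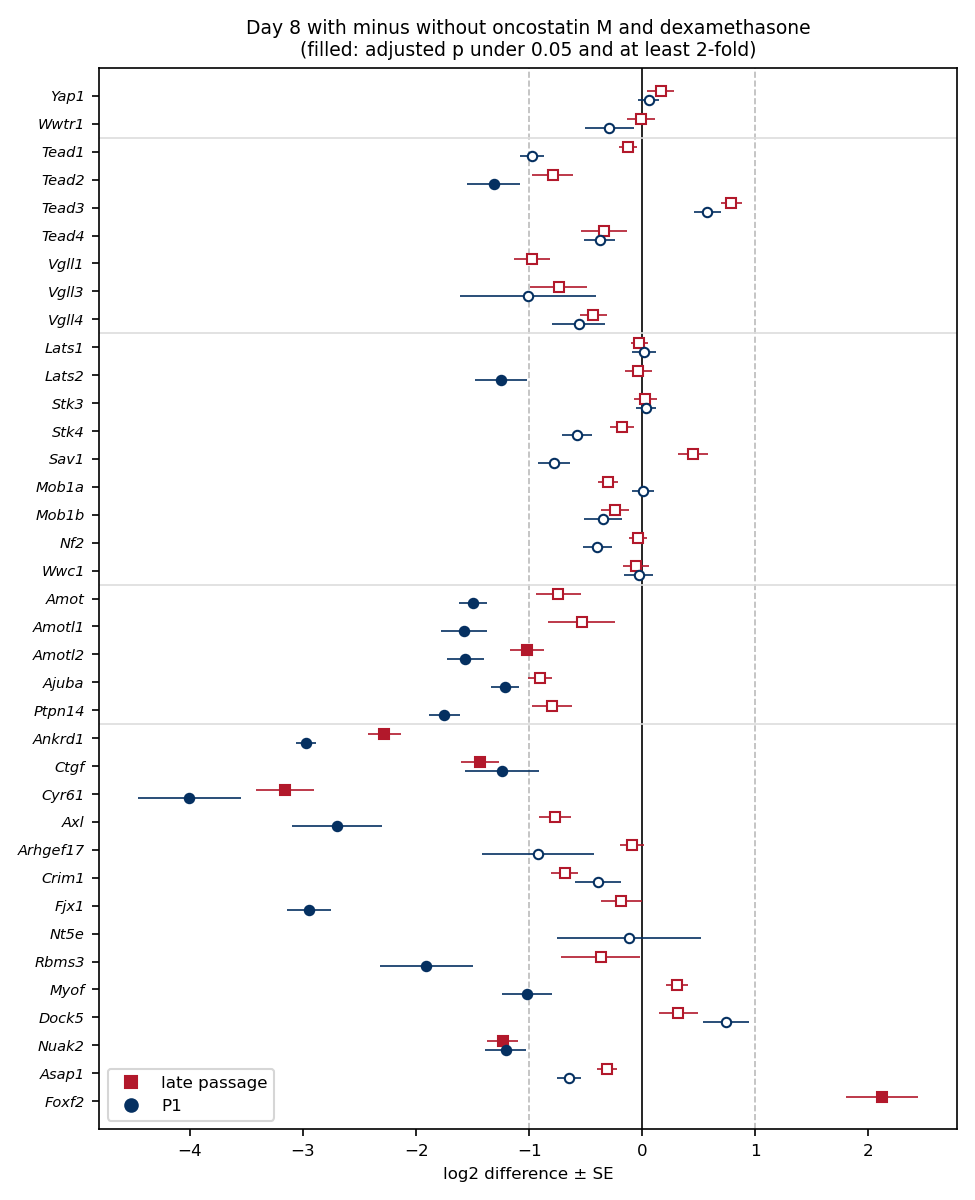
Log2 differences, with standard errors, between cells with and without oncostatin M and dexamethasone at day 8, for late cells (squares) and P1 cells (circles), ordered by role. Filled symbols passed the test and dashed lines mark 2-fold. Ankrd1, Ctgf, Cyr61, Nuak2 and Amotl2 are filled below 0 in both, while Fjx1 is at -0.18 in late cells and -2.95 in P1 cells.

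Whether the response differed between passages was tested as the induction effect in late cells minus that in P1 cells, each effect being taken within its own scanner. For 6 members the effect was less negative or more positive in late cells, and for none the reverse. The 6 of 37 members tested compare with 4.73% of 22366 genes, and the 0 members in the other direction with 5.21%. At an unadjusted p under 0.05 in limma, 1 member was lower. Over the 33 members measured on all 12 arrays compared, 5 were higher, against 3.87% of 17065 genes, and 0 lower, against 4.57%. Fjx1 had an effect of -0.18 in late cells and -2.95 in P1 cells, a difference of 2.76 ± 0.28 (adjusted p = 7.65e-06). On the arrays, Fjx1 was at 2.98, 2.67 and 2.27 in late induced cells, against 2.99, 2.59 and 2.89 in late uninduced cells, so the late groups overlapped where the P1 groups did not. Axl had effects of -0.77 and -2.70 in late and P1 cells, a difference of 1.92 ± 0.47 (adjusted p = 0.00821). Axl was at 5.98, 5.89 and 5.53 on the late induced arrays, against 6.68, 6.59 and 6.44 on the late uninduced arrays. At passage 1 it was at 2.40, 2.45 and 1.24 on the induced arrays, against 5.01, 4.52 and 4.64 on the uninduced ones. Induced values were below uninduced values in both passages, by more at passage 1.

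Foxf2 differed by 1.34 ± 0.40 (adjusted p = 0.0274). It was above background on no P1 array, so its P1 effect is not a measured one. Myof differed by 1.33 ± 0.26, Sav1 by 1.23 ± 0.20 and Lats2 by 1.21 ± 0.28, with adjusted p-values of 0.00188, 3.72e-04 and 0.00624. Sav1 had a late effect of 0.45 and a P1 effect of -0.78, neither of which was called on its own. Cyr61 (0.85 ± 0.57), Ankrd1 (0.69 ± 0.16) and Ctgf (-0.20 ± 0.40) did not pass this test of the difference, with adjusted p-values of 0.353, 0.00718 and 0.806. When P1 arrays of 1 slide were set against late arrays of 1 slide, Axl gave 1.73 and 2.16 with either P1 slide, neither of which passed, and Lats2 gave 1.21 with 1 of them and did not pass. Each P1 slide holds a single array of 1 of the 2 P1 groups. The call on Foxf2 was lost in 8 alternative settings, with 0.99 to 1.24 without late induced replicate 2, late uninduced replicate 1, P1 induced replicate 2 or 3, or P1 uninduced replicate 3, and that on Myof with the mean of its probes (0.80), 1 of which is near background.

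A further comparison sets P1 induced cells against fresh hepatocytes. In the induced cells 22 members were higher and Nt5e was lower. Tead3 was among the 22 and had not been called in P1 day-0 cells against fresh hepatocytes. This comparison shares its fresh arrays with the first and its induced arrays with the second, so the 3 are not independent. Of 35 members tested, 22 were higher, against 20.3% of all genes tested, and 1 lower, against 18.8%. The median was 1.25, against 0.04 over all genes, and groups did not overlap for 29 members, against 72.1% of all genes. Of the 35, 12 were not measured in full on both sides, and over the other 23, 11 were higher, against 12.2% of 15649 such genes, and 0 lower, against 19.1%.

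From the array values given above, Ankrd1 was at least 153-fold higher in P1 induced cells than in fresh hepatocytes (adjusted p = 7.20e-13). Myof was at 4.15, 4.29 and 4.17 in P1 induced cells, and at least 180.2-fold higher than in fresh hepatocytes (adjusted p = 1.04e-10). Ctgf was higher by 8.83 ± 0.33 (adjusted p = 2.41e-09). For these 3 targets the induced values remained far above every fresh array. Cyr61 did not pass, with a difference of -0.76 ± 0.45 and overlapping groups (adjusted p = 0.153). Without fresh replicate 2 that difference was called lower, at -1.18. Nt5e was at -3.14, -2.64 and -5.44 in induced cells, well above background on 1 array, and lower by 6.91 ± 0.64 (adjusted p = 3.00e-06). Yap1 gave -0.11 ± 0.10 (adjusted p = 0.302) and Wwtr1 1.61 ± 0.22 (adjusted p = 6.05e-05). All 4 TEAD genes passed here, Tead1 by 1.04, Tead2 by 5.20, Tead3 by 1.15 and Tead4 at least 5.23-fold, with adjusted p-values of 5.11e-06, 1.22e-08, 9.45e-06 and 5.59e-10. The other members called higher were Vgll3, Lats2, Sav1, the 5 cytoplasmic regulators and the targets Axl, Arhgef17, Crim1, Fjx1, Rbms3 and Nuak2. Among them Nuak2 was higher by 1.19 and Arhgef17 at least 88.2-fold, with adjusted p-values of 1.46e-04 and 3.13e-07. Nuak2 lost its call without fresh replicate 2 (0.996), and Tead1 without P1 induced replicate 2 (0.97) or under normexp (0.95). Lats2 lost its call with the mean of its probes (0.54). Its other probes gave 0.77 and -0.41, and neither was above background on every array compared. Amotl1, above background on 1 induced array and no fresh array, lost its call under normexp (0.02). Hepatocyte markers summed to 1340 to 1613 in P1 induced cells, against 4510 to 5336 in fresh hepatocytes, and bile duct and liver progenitor markers to 693 to 814 in P1 induced cells, against 1.26 to 2.17 in fresh hepatocytes. The stellate cell and fibroblast list summed to 60.4 to 139 in P1 induced cells, against 12.4 to 17.2 in fresh hepatocytes, and the part of these in the results was not tested.

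Another 8 days in culture without the inducers changed few members. At passage 1, uninduced cells had higher Rbms3, Fjx1 and Vgll4 and lower Dock5 than day-0 cells. Of 35 members tested, 3 were higher, against 6.28% of all genes tested, and 1 lower, against 4.87%, with medians of 0.05 and 0.00 over members and over all genes. Groups did not overlap for 19 members, against 56.4% of all genes, and over the 34 members measured in full the 3 higher and 1 lower compare with 4.47% and 4.59% of 17975 genes. In late cells, 5 of 36 members were higher, against 8.18% of 21341 genes, and 3 lower, against 6.37%, with medians of 0.02 and -0.02. Groups did not overlap for 21 members, against 58.1% of all genes, and over the 34 members measured in full the 3 higher and 3 lower compare with 6.25% and 5.98% of 19429 genes. These shares are near the background of all genes. Cell cycle genes summed to 6.01 to 9.02 in P1 uninduced cells, against 83.5 to 93.1 in P1 day-0 cells, and to 11.6 to 14.6 in late uninduced cells, against 100.1 to 112 in late day-0 cells. Kupffer cell and macrophage markers summed to 17.2 to 22.9 in P1 uninduced cells, against 3.58 to 3.86 in P1 day-0 cells, and to 7.49 to 12.9 in late uninduced cells, against 3.37 to 4.11 in late day-0 cells, with 6 of their 10 genes above background on no array of either uninduced group. In late cells hepatocyte markers summed to 320 to 435 in uninduced cells, against 56.8 to 162 in day-0 cells. The late stellate cell and fibroblast sum was 12.7 to 15.6 in uninduced cells, against 30.8 to 32.7 in day-0 cells, and the late endothelial sum was 2.30 to 4.37 in uninduced cells, against 9.74 to 24.1 in day-0 cells. The part of these in the results was not tested.

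Rbms3 was at 1.59, 2.07 and 1.28 in P1 uninduced cells, against -1.01, -1.09 and -2.55 in P1 day-0 cells, and rose by 3.19 ± 0.41 (adjusted p = 2.27e-04). In late cells it was at -0.29, 0.26 and -0.65 in uninduced cells, against -5.22, -4.69 and -5.57 in day-0 cells, of which 1 array was above background, and rose by 4.93 ± 0.35 (adjusted p = 3.02e-05). Uninduced values were above day-0 values on all arrays in both passages. Fjx1 rose by 1.26 ± 0.19 at passage 1 (adjusted p = 6.35e-04), where its day-0 values were 1.19, 1.36 and 1.01. Vgll4 was at 3.11, 3.30 and 3.05 in P1 uninduced cells, against 2.05, 2.13 and 2.22 in P1 day-0 cells, and rose by 1.02 ± 0.24 (adjusted p = 0.00690). The call was lost without P1 uninduced replicate 2 (0.95) or P1 day-0 replicate 1 (0.98). In late cells the same gene gave 0.99 ± 0.12 (adjusted p = 3.38e-04), just under 2-fold. Dock5 was at 0.39, 0.19 and 0.37 in P1 uninduced cells, against 1.72, 1.62 and 1.81 in P1 day-0 cells, and fell by 1.39 ± 0.21 (adjusted p = 5.12e-04). It was at -0.37, -0.70 and -0.78 in late uninduced cells, against 0.83, 0.94 and 0.55 in late day-0 cells, and fell by 1.39 ± 0.18 (adjusted p = 4.46e-04). Yap1 differed by -0.33 ± 0.12 in late cells (adjusted p = 0.0586) and -0.03 ± 0.10 in P1 cells (adjusted p = 0.847), and no TEAD gene, Wwtr1 or Lats2 passed both the adjusted p and the 2-fold limit in either passage. For Dock5 and Rbms3, then, the call and its direction were shared by the 2 passages, which were measured on separate samples. Within slide 5, which holds 1 P1 uninduced and 1 P1 day-0 array, Dock5 gave -1.43, Fjx1 1.22 and Vgll4 0.83, and none of the 3 passed.

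Late cells showed 6 further calls. Foxf2 was at -4.95, -3.57 and -4.24 in late uninduced cells, against -6.16, -6.20 and -6.33 in late day-0 cells, none of which was above background, and was at least 1.45-fold higher (adjusted p = 0.00148). Vgll1 was at -2.89, -2.60 and -3.16 in late uninduced cells, against -4.10, -3.88 and -4.26 in late day-0 cells, and rose by 1.19 ± 0.16 (adjusted p = 5.44e-04). Both are dim genes, and both calls were lost under normexp (0.54 for Foxf2 and 0.61 for Vgll1). Cyr61 was at 5.50, 5.51 and 5.31 in late day-0 cells, and the late uninduced values given above were lower by 1.34 ± 0.26 (adjusted p = 0.00347). Crim1 was at 2.04, 2.03 and 1.75 in late uninduced cells, against 2.99, 3.01 and 2.99 in late day-0 cells, and fell by 1.06 ± 0.12 (adjusted p = 2.31e-04). Amot rose by 1.17 ± 0.20 (adjusted p = 0.00209) and Ctgf by 1.01 ± 0.17 (adjusted p = 0.00173). The call on Amot was lost with the mean of its probes (0.84), which takes in a probe above background on no array. A dimmer Amot probe, above background on all late uninduced and late day-0 arrays, gave 0.72. Ctgf was at 5.69, 5.81 and 5.78 in late day-0 cells, and its call was lost without late uninduced replicate 2 (0.89) or late day-0 replicate 1 (0.97). The call on Crim1 was lost without late uninduced replicate 3 (-0.96) and under quantile normalization (-0.97). Cyr61 and Ctgf thus moved in opposite directions over the 8 days in late cells. At passage 1 their differences of -0.46 ± 0.45 and 0.71 ± 0.33 did not pass.

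**Figure D4:**
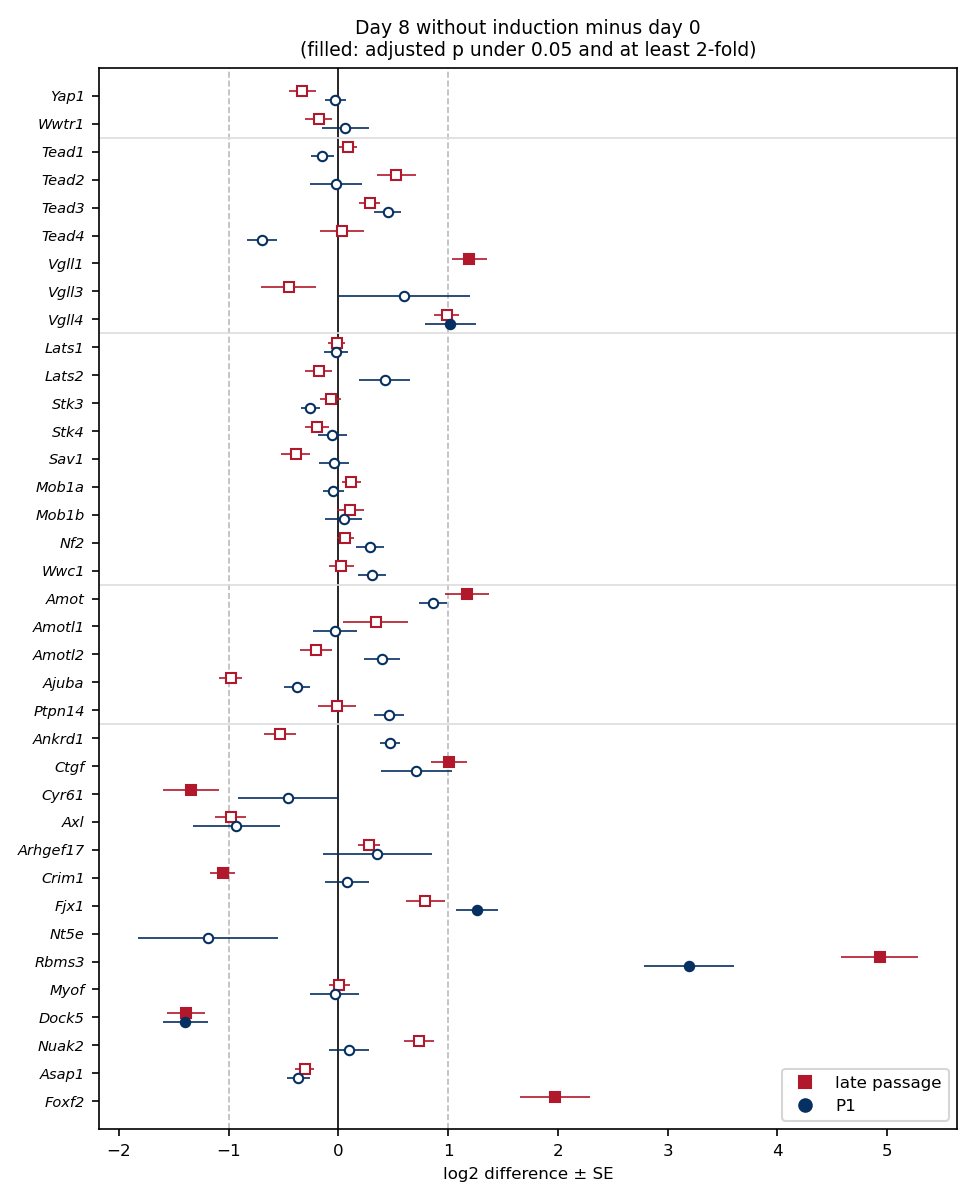
Log2 differences, with standard errors, between uninduced cells at day 8 and day-0 cells, for late cells (squares) and P1 cells (circles), ordered by role. Filled symbols passed the test and dashed lines mark 2-fold. Rbms3 (4.93 in late cells, 3.19 in P1 cells) and Dock5 (-1.39 in each) are filled in both passages.

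The 8-day change was tested for a difference between late and P1 cells, with 1 of 37 members higher, against 1.74% of 22366 genes, and 2 lower, against 1.11%. Over the 33 members measured in full, 0 were higher and 2 lower, against 1.28% and 0.778% of 17476 genes. Foxf2 had the higher one, by 2.14 ± 0.40 (adjusted p = 0.00543), and no P1 array measured it. Crim1 changed by -1.06 in late cells and 0.08 in P1 cells, a difference of -1.13 ± 0.25 (adjusted p = 0.0149). Crim1 was at 2.31, 2.42 and 2.18 in P1 uninduced cells, against 2.35, 2.26 and 2.07 in P1 day-0 cells, which overlapped. Ankrd1 changed by -0.53 in late cells, where day 0 was at 6.93, 7.07 and 6.67, and by 0.47 in P1 cells. The difference of -1.0 ± 0.16 (adjusted p = 0.00193) lay on the 2-fold limit, and the call was lost in 10 of the 21 alternative settings, 7 of which leave out 1 replicate of late day-0 cells (1 or 2), late uninduced cells (2), P1 uninduced cells (2 or 3) or P1 day-0 cells (1 or 3), with values of -0.91 to -0.996. With the replicate number as a block, Rbms3 was called higher as well, at 1.74 (adjusted p = 0.00475), which makes 2 members. Same-numbered samples of these groups deviated together, but the same-numbered P1 samples among them also shared a slide.

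Late day-0 cells were set directly against P1 day-0 cells, with the limit that scanner and passage cannot be told apart. Of 37 members tested, 3 were higher, against 4.33% of 22366 genes, and 5 lower, against 9.1%, shares near the background of all genes. The median member difference was 0.04, against -0.04 over all genes, and groups did not overlap for 26 members, against 56.9% of all genes. Over the 33 members measured in full 2 were higher, against 3.08% of 17872 genes, and 3 lower, against 6.43%. Vgll3 was at 3.78, 4.72 and 3.81 in late day-0 cells, against 1.52, 0.51 and -0.50 in P1 day-0 cells, and was higher by 3.59 ± 0.51 (adjusted p = 5.24e-05). Axl was at 7.72, 7.55 and 7.39 in late day-0 cells, against 5.78, 5.75 and 5.43 in P1 day-0 cells, and was higher by 1.90 ± 0.33 (adjusted p = 3.26e-04). For both genes all late arrays lay above all P1 arrays. Vgll1 is the third of those counted higher (adjusted p = 0.00177), at -4.10, -3.88 and -4.26 in late day-0 cells, against -4.84, -5.41 and -5.39 in P1 day-0 cells, none above background. Its late mean of -4.08 lies under the lowest level measured well above background on the P1 day-0 arrays, which was -3.99 to -3.69, so no fold is given, and its direction turned under normexp (-0.11) and with the mean of its probes (-0.05).

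On the lower side, Rbms3 was lower by 3.61 ± 0.41 (adjusted p = 5.98e-06), with the array values given above and 1 late day-0 array above background. Nt5e was at -5.26, -4.86 and -5.47 in late day-0 cells, none above background, and was at least 5.01-fold lower (adjusted p = 0.00812). The call on Nt5e was lost with slide as a random block (-2.70, adjusted p = 0.126). Amotl1 was at -4.01, -4.46 and -4.26 in late day-0 cells, against -1.76, -2.12 and -2.11 in P1 day-0 cells, and was lower by 2.25 ± 0.26 (adjusted p = 7.35e-06). The groups of all 3 were separate. Tead4 was at -1.12, -0.81 and -1.48 in late day-0 cells and lower by 1.31 ± 0.18 (adjusted p = 3.09e-05), a call lost with the mean of its probes (-0.96). Tead2 was at 2.21, 1.96 and 2.60 and lower by 1.05 ± 0.22 (adjusted p = 0.00173). The call on Tead2 was lost without late day-0 replicate 2 (-0.90), under normexp (-0.99) and with the mean of its probes (-0.97). Yap1, at 4.77, 4.58 and 4.69 in late day-0 cells, differed by 0.47 ± 0.11 (adjusted p = 0.00254), under 2-fold, with every late array above every P1 array. Wwtr1 (4.16, 4.33 and 4.5), Tead1 (2.51, 2.49 and 2.67), Tead3 (1.44, 1.42 and 1.66) and Lats2 (1.65, 1.71 and 1.53) did not pass, with differences of 0.04, 0.08, 0.14 and -0.47. The stellate cell and fibroblast list summed to 30.8 to 32.7 in late day-0 cells, against 44.5 to 72.2 in P1 day-0 cells, and 8 of its 12 genes, Col1a1, Col3a1, Pdgfrb and Thy1 among them, were above background on no late day-0 array. Hepatocyte markers summed to 56.8 to 162 in late day-0 cells, against 919 to 1162 in P1 day-0 cells. The endothelial list summed to 9.74 to 24.1 in late day-0 cells, against 0.818 to 1.37 in P1 day-0 cells, with Cdh5, Kdr, Tek and Tie1 above background on no array of either group. Of 8 bile duct and liver progenitor markers 4 were lower, with a median of -2.48. The part of these in the results was not tested.

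Other genes of the pathway were listed by role. Like the members, these lists were chosen with earlier results of these data known. Their counts are a description and add no support to the member results. Of 32 upstream genes listed, 29 were tested for P1 day-0 cells against fresh hepatocytes, of which 15 rose, against 25.4% of all genes tested, and 2 fell, against 25.2%. Over the 26 measured on all arrays of both groups, 13 rose, against 17.9% of such genes, and 2 fell, against 25.5%. Wtip, an Ajuba family LIM protein, rose by 4.63, the FERM protein gene Frmd6 by 4.14 and the kinase gene Map4k4 by 4.12, with adjusted p-values of 4.44e-09, 7.22e-09 and 6.96e-08. Rassf5 fell by 1.46 and the protocadherin gene Dchs1 by 1.04, with adjusted p-values of 1.42e-05 and 9.17e-04. Of 26 further reported targets listed, 24 were tested, 19 rose, against 25.4% of all genes tested, and the other 5 did not pass. Of the 24, 14 had a measured level on each P1 day-0 and fresh array, and 9 of these rose, against 17.9% of such genes. Among the 19 were the annexin gene Anxa3 (9.66, adjusted p = 9.97e-12), thrombospondin gene Thbs1 (at least 74.5-fold, adjusted p = 2.35e-11) and Tgfb2, a TGF-beta ligand (at least 51.6-fold, adjusted p = 1.70e-10).

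On induction, more of the further targets fell than rose in both passages. At passage 1, 3 of 29 upstream genes fell, near the 9.01% of all genes tested, and the others did not pass. Among those that fell, Frmd6 was lower by 2.65 and the protocadherin gene Fat1 by 1.13, with adjusted p-values of 1.74e-06 and 1.50e-05. Of 24 further targets 14 fell, against 9.01% of all genes tested, and 2 rose, against 9.68%. Thbs1 fell by 4.80, the cyclin D1 gene Ccnd1 by 4.24 and the activin subunit gene Inhba by 3.31, with adjusted p-values of 2.72e-08, 6.04e-07 and 1.38e-05, while the growth arrest gene Gadd45a rose by 1.63 and Igfbp3 by 1.24, with adjusted p-values of 0.0135 and 0.00242. In late cells 1 of 30 upstream genes rose, against 2.94% of all genes tested, and 1 fell, against 3.06%, shares near the background. Fat4 rose by 2.98 (adjusted p = 0.0302, above background on 1 uninduced array) and Frmd6 fell by 1.55 (adjusted p = 5.48e-04). Of 25 further targets 10 fell in late cells, against 3.06% of all genes tested, and 1 rose, against 2.94%. Over the 22 measured on all arrays of both groups, 8 fell, against 2.3% of such genes, and 1 rose, against 2.44%. Thbs1 fell by 3.87, the EGF receptor ligand gene Areg was at least 7.9-fold lower and the tissue factor gene F3 fell by 2.15, with adjusted p-values of 1.72e-04, 0.00823 and 0.00113. The actin-binding protein gene Tagln rose by 1.20 (adjusted p = 0.0179).

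Over the 8 uninduced days, none of 29 upstream genes passed at passage 1 in limma, where 4 were higher and 7 lower at an unadjusted p under 0.05. In late cells 2 of 30 rose, near the 8.18% of all genes tested, Map4k3 by 1.55 and Rassf5 by 1.26 (adjusted p = 4.40e-06 and 8.75e-05). Of 24 further targets, 4 rose at passage 1, against 6.28% of all genes tested, and 3 fell, against 4.87%, among them Gpc3, a glypican, at 1.94 and Birc5, a mitotic gene, at -3.80 (adjusted p = 1.23e-05 and 5.55e-06). In late cells 6 of 25 rose, against 8.18% of all genes tested, and 7 fell, against 6.37%, among them Gpc3, at least 4.22-fold higher, and the collagen gene Col8a1 at -4.49 (adjusted p = 9.07e-04 and 5.67e-05). Over the 22 measured on all late arrays compared, 5 rose, against 6.25% of such genes, and 6 fell, against 5.98%.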

How the data were processed

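The arrays were Agilent 1-colour mouse expression arrays, 21 in all, with 3 in each of 7 groups taken from the sample titles. Per the file headers, the authors deposited Agilent Feature Extraction output (versions 11.5.1.1 and 10.7.3.1), whose processed signal is a background-corrected intensity. Tables of log2 values were also deposited by the authors, and they served as an alternative. No aligner or build applies, and the probe positions in the scanner files are on mm9.

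Each array's log2 processed signal was reduced by its 75th percentile. Control spots and 63 genes with a spot marked as an outlier were left out. Spots of a probe were averaged, and a gene was read from its probe with the highest mean over the 21 arrays. Tests covered genes whose probe was well above background throughout at least 1 of the groups fitted. Fresh and P1 arrays (12) and late arrays (9) were fitted separately with limma 3.58.1 in R 4.3.3 (lmFit, eBayes), and comparisons between passages were fitted on all 21. Benjamini-Hochberg adjustment ran over all genes tested in a comparison, and a call needed an adjusted p under 0.05 and a 2-fold change. The number of arrays limits the precision. The fit was tested on simulated data.

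The members and the lists of other pathway genes and markers were chosen with earlier results of these data known. Array values are printed for Yap1, Wwtr1, the TEAD genes, Lats2, Ankrd1, Ctgf and Cyr61, and for up to 3 members with the highest and lowest fitted difference among the calls in each comparison. Other values were chosen after they were seen.

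Same-numbered late samples deviated from their group means together in 9 of 9 pairs (correlation 0.25 to 0.55), as did P1 uninduced and P1 day-0 samples in 3 of 3. Over all fresh and P1 groups 7 of 18 pairs had a correlation over 0.1. All of these were between P1 groups, as the pairs with fresh samples ran from -0.06 to 0.05. The P1 pairs under 0.1 were those of P1 induced replicate 2 (-0.11 and 0.08). That array was on slide 5 and its same-numbered partners on slide 4, while all other same-numbered P1 samples shared a slide. The P1 correlations thus go with slide as well as with number. Within slide 4, P1 day-0 and P1 uninduced samples correlated at 0.29 and 0.21 with the same number and 0.04 and 0.09 with different numbers. As the numbers did not hold throughout, they were not taken to pair the samples in the main fit. The alternatives were quantile normalization, normexp on the mean and background signals with an offset of 50, no filter on dim probes, the mean of a gene's probes, the replicate number as a block, slide as a random block, values within slides, other sets of arrays in the fit, the deposited log2 values, and leaving out each replicate. The result of 1 gene among the further upstream genes is not reported here.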

Additional observations from a re-analysis of the deposited data

Results flagged for a closer look

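Each result here was marked because the same contrast gave different values in late and P1 cells by a limma test of the difference itself. For the effect of oncostatin M and dexamethasone at day 8, late cells minus P1 cells, the log2 difference was 2.76 for Fjx1, 1.92 for Axl, 1.34 for Foxf2, 1.33 for Myof, 1.23 for Sav1 and 1.21 for Lats2. For Fjx1, Axl, Myof and Lats2 the P1 effect was negative and called. For Sav1 the late effect was 0.45 and the P1 effect -0.78, neither called. Foxf2 was above background on no P1 array.

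For the change over 8 uninduced days, late cells minus P1 cells, the difference was 2.14 for Foxf2, -1.0 for Ankrd1 and -1.13 for Crim1. Ankrd1 changed by -0.53 in late cells and by 0.47 in P1 cells, so the directions were opposite, and neither change was called on its own. Crim1 changed by -1.06 in late cells, which was called, and by 0.08 in P1 cells.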

How the results depend on the processing

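Of the values of single members under alternative settings, 5102 stayed on their side of the threshold, 69 lost a call, 39 gained one and 2 called values turned. Among the 5102 were 218 uncalled values, of 68 members and comparisons, whose sign differed from the reported one. The direction of Vgll1 in late day-0 against P1 day-0 cells turned to -0.11 under normexp and -0.047 with the mean of its probes. Leaving out 1 replicate at a time, P1 day-0 cells against fresh hepatocytes gave 23 to 24 members higher and 1 to 2 lower (Vgll4 joined without fresh replicate 3). P1 uninduced against P1 day-0 cells gave 2 to 3 higher and 1 lower, P1 induced against P1 uninduced cells 0 higher and 14 to 16 lower, and P1 induced cells against fresh hepatocytes 21 to 22 higher and 1 to 2 lower (Cyr61 joined without fresh replicate 2). Late uninduced against late day-0 cells gave 4 to 6 higher and 3 to 4 lower, late induced against late uninduced cells 1 higher and 4 to 6 lower, and late day-0 against P1 day-0 cells 3 higher and 5 to 6 lower. The induction effect in late minus P1 cells gave 5 to 8 higher and 0 to 1 lower (Nt5e, without P1 induced replicate 3), and the 8-day change 1 to 2 higher (Rbms3 joined without P1 day-0 replicate 3) and 1 to 2 lower (Ankrd1 was lost without 7 of the replicates in turn).

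Within slide 5, P1 uninduced against P1 day-0 cells gave 1 member higher in place of 3, from a single array in each group. Under normexp, late uninduced against late day-0 cells gave 3 higher in place of 5. With the mean of all probes, late day-0 against P1 day-0 cells gave 3 lower in place of 5. The 8-day change in late minus P1 cells rests on few members. Its count of 1 higher became 0 under normexp, within slides 5 and 6 and with only the groups compared in the fit, and 2 with slide as a random block. Its count of 2 lower became 1 under normexp and 0 within slides 4 and 6 or 5 and 6. With the replicate number as a block, that comparison gave 2 members higher, the induction effect in late minus P1 cells 7 in place of 6 (Rbms3 joined) and P1 induced against P1 uninduced cells 16 lower in place of 15 (Vgll3 joined), and the block changed no other call among the members.

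For P1 day-0 cells against fresh hepatocytes, the median of all genes was 0.13 under quantile normalization, -0.17 under normexp and -0.57 with no filter on dim probes, against -0.01 in the reported setting. Values of genes near background, such as Foxf2, Vgll1, Amotl1 and Nt5e, are limited by the signal over background.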

Other observations

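In the induction effect of late minus P1 cells, 4 of 25 further reported targets were higher, against 4.73% of all genes tested, and 3 lower, against 5.21%. The tetraspan gene Lhfp was higher by 2.44, the activin subunit gene Inhba by 2.37 and Ccnd1 by 2.24, while Areg was at -4.95, Gadd45a at -2.23 and Igfbp3 at -1.51. Of 30 upstream genes 3 were higher, against 4.73% of all genes tested, and 2 lower, against 5.21%. The higher ones were Fat4 (by 2.67), Map4k4 (by 1.11) and Frmd6 (by 1.11), and the lower ones Rassf6 (at -1.23) and Stk38l (at -1.05). In late day-0 against P1 day-0 cells 5 of 25 further targets were lower, against 9.1% of all genes tested, and 0 higher, against 4.33%, at the call, with 1 higher at an unadjusted p under 0.05 in limma. Over the 23 measured on all arrays of both groups, 4 were lower, against 6.43% of such genes, and 0 higher, against 3.08%. Gpc3 was at least 12.3-fold lower, and Thbs1 and Edn1 were at -2.98 and -2.90. Scanner and passage cannot be told apart in this last comparison.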
